A study of Mus musculus with 24 samples.

Results

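Wild-type mouse lungs were compared between 48 and 72 h of inhaled ozone (O3). At 72 h, genes of cell division and several chaperones of protein folding had higher signals and several detoxifying enzymes had lower ones, with no probe set past an adjusted p of 0.05. The comparison set 3 Tnfr+/+ lungs taken after 72 h of O3 against 3 Tnfr+/+ lungs taken after 48 h, 6 of the 24 arrays of the series, chosen by their titles alone. Tnfr+/+ mice were male C57BL/6J mice with both TNF receptors, and each array held total RNA from the homogenized left lung of 1 mouse kept in 0.3 ppm O3 without a break until it was killed at 72 or 48 h. The 2 times are therefore different animals. The same step was measured in 3 and 3 Tnfr-/- lungs, from mice that lack both TNF receptors in every cell, and 12 further arrays held lungs exposed for 24 h or kept in filtered air. The arrays, Affymetrix MOE430A, read RNA with sets of short probes, and their signal is a brightness that can be compared between lungs for 1 probe set but not between probe sets. Genes are given below as higher or lower by their values alone, since none was called with all arrays.

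O3 is a gas that oxidizes lipids and proteins at the airway surface and kills ciliated and alveolar type 1 cells. In rodents the injury is followed by division of the surviving epithelium, in which club cells of the small airways and alveolar type 2 cells serve as progenitors. Cells about to divide switch on a late program of cyclins, ubiquitin ligase parts and spindle proteins. Heat shock proteins keep proteins folded in the cytosol and mitochondria, and a separate set of chaperones does so in the endoplasmic reticulum. Club cells are also rich in cytochrome P450 and other detoxifying enzymes.

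The deposited signals summed to between 14877000 and 16057700 per array, and the number of arrays limits the precision. Signals given here are those after quantile normalization, which gives every array the same set of values, so that some values recur. The surfactant gene Sftpc had signals of 30117, 30117 and 32126 in the 72 h lungs and 31204, 31204 and 32126 in the 48 h lungs, and the club cell gene Scgb1a1 had 26189, 28353 and 28353 in the 72 h lungs and 28353, 27743 and 26189 in the 48 h lungs, so the lung's own markers were strong on all 6 arrays. Replicate 1 of the 72 h lungs stood apart. Its Gapdh control probe sets, placed at the 3′ and 5′ ends of the transcript, gave a 3′/5′ ratio of 4.45, against 0.89 to 1.74 on the other 23 arrays, and its mean correlation with the other arrays was 0.909, against 0.933 to 0.947. Its actin 3′/5′ ratio of 1.18 lay inside the range of 1.01 to 1.95 over all 24 arrays. Many values are therefore also given without it.

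Replicate 2 of the 48 h lungs carried transcripts of fat and thymus. Ucp1, the uncoupling protein of brown fat, had signals of 13.9, 10.1 and 9.26 in the 72 h lungs, against 11.6, 416 and 14.3 in the 48 h lungs. The fat hormone Adipoq gave 325, 696 and 207 in the 72 h lungs, against 365, 3755 and 164 in the 48 h lungs. Rag1, which recombines antigen receptor genes in developing lymphocytes, gave 16.7, 13.2 and 23.2 in the 72 h lungs, against 2.92, 421 and 3.88 in the 48 h lungs. Summed over the 14 measured genes of the adipose tissue list, signals were 13974, 15445 and 9906 in the 72 h lungs and 12114, 47297 and 10838 in the 48 h lungs, and over 8 thymus genes 1340.2, 1056 and 1009 in the 72 h lungs and 978, 2729.9 and 984 in the 48 h lungs. For B cells, the sums over 14 markers were 4848, 5634 and 5257 in the 72 h lungs and 5017, 12207 and 3836 in the 48 h lungs. In each of these the single high array was 48 h replicate 2. The adipose list had a median log2 difference (72 h minus 48 h) of -0.39 with all arrays and of 0.22 without that lung. For the thymus list these medians were -0.20 and 0.21. The B cell list had a median of 0.14 with all arrays and of 0.17 without that lung. The high B cell sum therefore does not stand for the B cell markers in general. The part of this tissue in the results below was not tested.

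**Figure D1:**
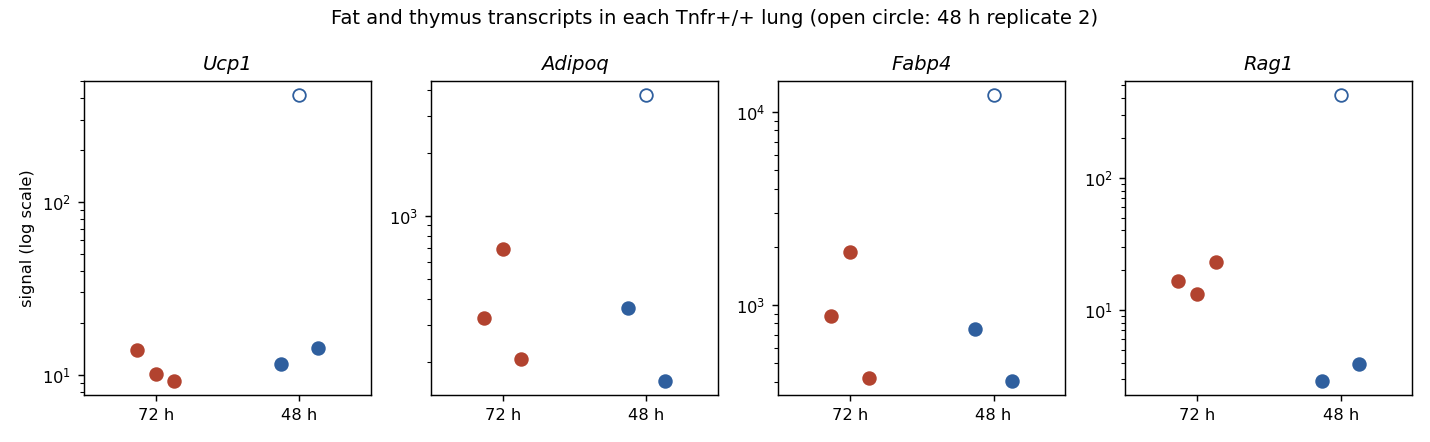
Signal (log scale) of 3 fat transcripts and of Rag1 in each Tnfr+/+ lung after 72 h (left) and 48 h (right) of O3; every point is 1 lung and the open circle is 48 h replicate 2. That lung lies above the other 5 in all 4 panels, with a Ucp1 signal of 416.

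Of 20537 probe sets tested with limma, 0 were higher and 0 lower at 72 h at an adjusted p under 0.05, and the smallest adjusted p was 0.0775. At an unadjusted p under 0.05 there were 825 higher and 931 lower. The study's methods used an unadjusted p under 0.01, called the 0.01 threshold here, and 227 probe sets (1.11%) passed it on the higher side and 288 (1.4%) on the lower side. Fitted on the 6 arrays alone, with their own spread, 87 passed on the higher side and 82 on the lower. With 1 probe set for each of 11597 genes, 111 genes (0.957%) passed on the higher side and 170 (1.47%) on the lower. In 507 genes (4.37%) all 3 of the 72 h values lay above all 3 of the 48 h values, and in 576 (4.97%) all lay below. The median log2 difference over all genes was -0.003. These shares are the background against which the counts of the gene groups below can be read.

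Without 72 h replicate 1, 1 probe set (0.00487%) was higher and 9 (0.0438%) were lower at an adjusted p under 0.05, and the 0.01 threshold was passed by 212 (1.03%) on the higher side and 315 (1.53%) on the lower. Of the probe sets past the unadjusted threshold, 86 higher and 133 lower were shared with the fit of all arrays, 37.9% and 46.2% of the lists from all arrays and 40.6% and 42.2% of the lists without that lung. Per gene, 91 (0.785%) passed on the higher side and 185 (1.6%) on the lower, and 1169 (10.1%) lay wholly above and 1401 (12.1%) wholly below with 2 lungs against 3. With that lung and without 48 h replicate 2, 95 of 11597 genes passed on the higher side and 156 on the lower.

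**Figure D2:**
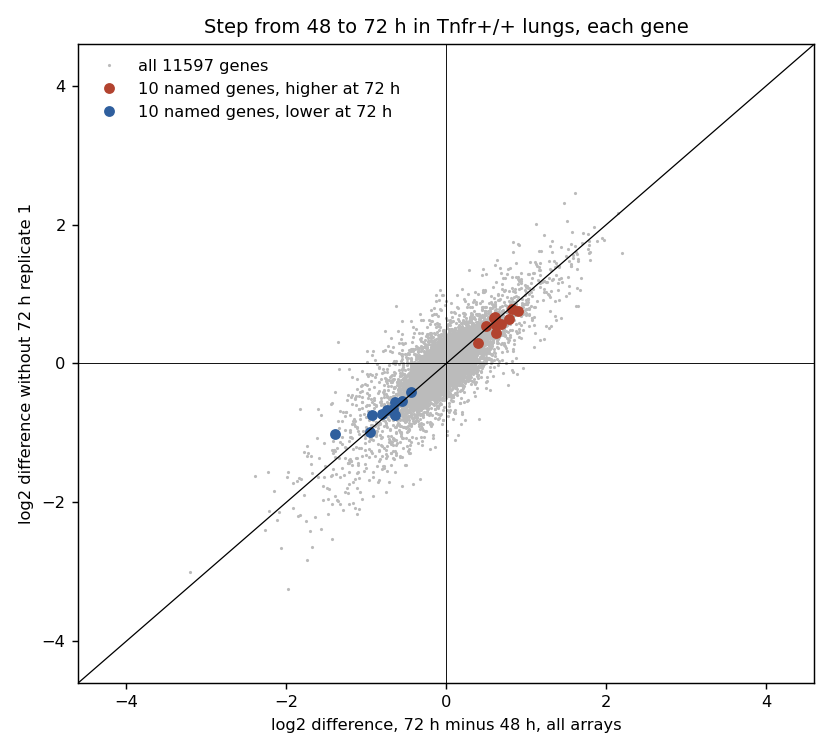
Log2 difference (72 h minus 48 h) of each gene in Tnfr+/+ lungs with all arrays (x axis) and without 72 h replicate 1 (y axis); grey points are all 11597 genes, the line marks equal values. The 20 coloured genes were chosen to have an unadjusted p under 0.05 on both axes, so their place is fixed by that choice; Ndrg2 lies at -0.96 and -0.99.

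Among the 10 probe sets called without replicate 1, the one that was higher is annotated to several genes and is not named. Its signals were 50.9, 579.98 and 918 in the 72 h lungs, against 47.4, 20.5 and 44.8 in the 48 h lungs, so replicate 1 was near the 48 h lungs and the other 2 were far above them (log2 difference without replicate 1 of 4.37, adjusted p = 6.05e-05). In Tnfr-/- lungs the same probe set was at 774, 1469 and 1042 in the 72 h lungs, against 479, 823 and 796 in the 48 h lungs, high at both times. Of the lower ones, the groups did not overlap with all arrays for Abcb1a and Dpep1. Abcb1a, the drug efflux pump of capillary endothelium and other cells, gave 281, 255 and 199 in the 72 h lungs, against 377, 380.3 and 376 in the 48 h lungs (without replicate 1, adjusted p = 0.0394), and Dpep1, a dipeptidase that cleaves leukotriene D4, gave 1028, 724 and 736 in the 72 h lungs, against 1295, 1478 and 1537 in the 48 h lungs. For Mfn1, which fuses mitochondria, and Cartpt, a neuropeptide precursor, replicate 1 lay above the 48 h lungs and the other 2 far below them. The Mfn1 probe set read 196, 19.2 and 20.1 in the 72 h lungs, against 124, 123 and 129 in the 48 h lungs.

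Of the gene lists, cell division had the most members past the 0.01 threshold on the higher side. Of 32 measured genes of mitosis and cell division, 8 passed the 0.01 threshold on the higher side and 0 on the lower, against 0.957% and 1.47% of all genes. The 72 h and 48 h values did not overlap in 14, all of them higher at 72 h, against 4.37% of all genes. The median log2 difference of the list was 0.50, and 30 of the 32 were above 0. Without replicate 1 the median was 0.48, with 5 past the threshold on the higher side and 0 on the lower (background 0.785% and 1.6%). Without 48 h replicate 2 it was 0.53, with 7 and 0 (background 95 and 156 of 11597 genes).

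Ube2c, the ubiquitin-conjugating enzyme that feeds the anaphase-promoting complex, gave signals of 1169, 745 and 1006 in the 72 h lungs, against 505, 537 and 505 in the 48 h lungs. All 3 of the 72 h lungs were above every 48 h lung, and the 48 h lungs were close together (log2 difference 0.89 ± 0.18 (SE), adjusted p = 0.105; without replicate 1 0.75). Ccna2, the cyclin of S phase and early mitosis, gave 988, 668 and 807 in the 72 h lungs, against 542, 485 and 401 in the 48 h lungs, again with no overlap (log2 difference 0.78 ± 0.19, adjusted p = 0.223). Its second probe set was also higher, with a log2 difference of 0.49. Cdc20, the activator of the anaphase-promoting complex, gave 1215, 739 and 936 in the 72 h lungs, against 532, 521 and 576 in the 48 h lungs. The lowest 72 h lung was above the highest 48 h lung, and the log2 difference was 0.80 ± 0.22 (adjusted p = 0.288).

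The other 5 members past the threshold stood the same way. The kinase Aurkb, of the chromosomal passenger complex, averaged 309 ± 36.7 in the 72 h lungs and 204 ± 12.5 in the 48 h lungs (SD, n = 3 each), and the mitotic kinase Plk1 averaged 324 ± 36.9 in the 72 h lungs and 233 ± 24.5 in the 48 h lungs. The spindle checkpoint kinase Bub1b gave 143, 166 and 169.7 in the 72 h lungs, against 111, 50.5 and 25 in the 48 h lungs. Its 48 h values spread widely and its 72 h values did not. Ccnb2, a cyclin of mitotic entry, gave 591, 420.4 and 466 in the 72 h lungs, against 300.1, 371 and 318 in the 48 h lungs, and Cenpf, a kinetochore protein, gave 346, 365 and 397 in the 72 h lungs, against 237, 273 and 246 in the 48 h lungs. In both genes the groups did not overlap.

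Further members were higher by less or with more spread. Mki67, the proliferation antigen, gave 646, 585 and 866 in the 72 h lungs, against 518, 579 and 358 in the 48 h lungs, with no overlap (log2 difference 0.54 ± 0.24, unadjusted p = 0.0411). Cdk1, the mitotic kinase itself, gave 618, 512 and 749.8 in the 72 h lungs, against 530.1, 342 and 70.1 in the 48 h lungs. Its groups overlapped, with 48 h replicate 3 far below the other lungs, and the unadjusted p was 0.0891. Birc5, which encodes survivin, gave 435, 456 and 617 in the 72 h lungs, against 419, 499 and 413 in the 48 h lungs, with overlap. The 2 members below 0, Nusap1 and Kif2c, were at -0.05 and -0.04.

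The same genes were low in air and at 24 h. In Tnfr+/+ lungs Ube2c averaged 195 in air, 214 at 24 h, 515 at 48 h and 974 at 72 h. Cdc20 averaged 261 in air, 201 at 24 h, 543 at 48 h and 963 at 72 h. The step was present in Tnfr-/- lungs too. There 6 of the 32 genes passed the 0.01 threshold on the higher side and 0 on the lower (background 0.629% and 0.526%), and 24 were higher and 0 lower with no overlap (background 6.9% and 7.47%), with a median log2 difference of 0.51. Ube2c in Tnfr-/- lungs gave 823, 904 and 735 in the 72 h lungs, against 457, 502 and 314 in the 48 h lungs. No member passed an unadjusted p of 0.01 for the difference of the step between genotypes (background 88 of 11597 genes). For Ube2c that difference was -0.08 ± 0.25 (SE). In the Tnfr-/- step, 1 of 20537 probe sets (0.00487%) was higher at an adjusted p under 0.05 and 0 were lower (limma; 577 and 523 had an unadjusted p under 0.05). It belonged to Sgo1, the protector of cohesion at centromeres, with a log2 difference of 2.28 in Tnfr-/- lungs and 1.03 in Tnfr+/+ lungs.

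**Figure D3:**
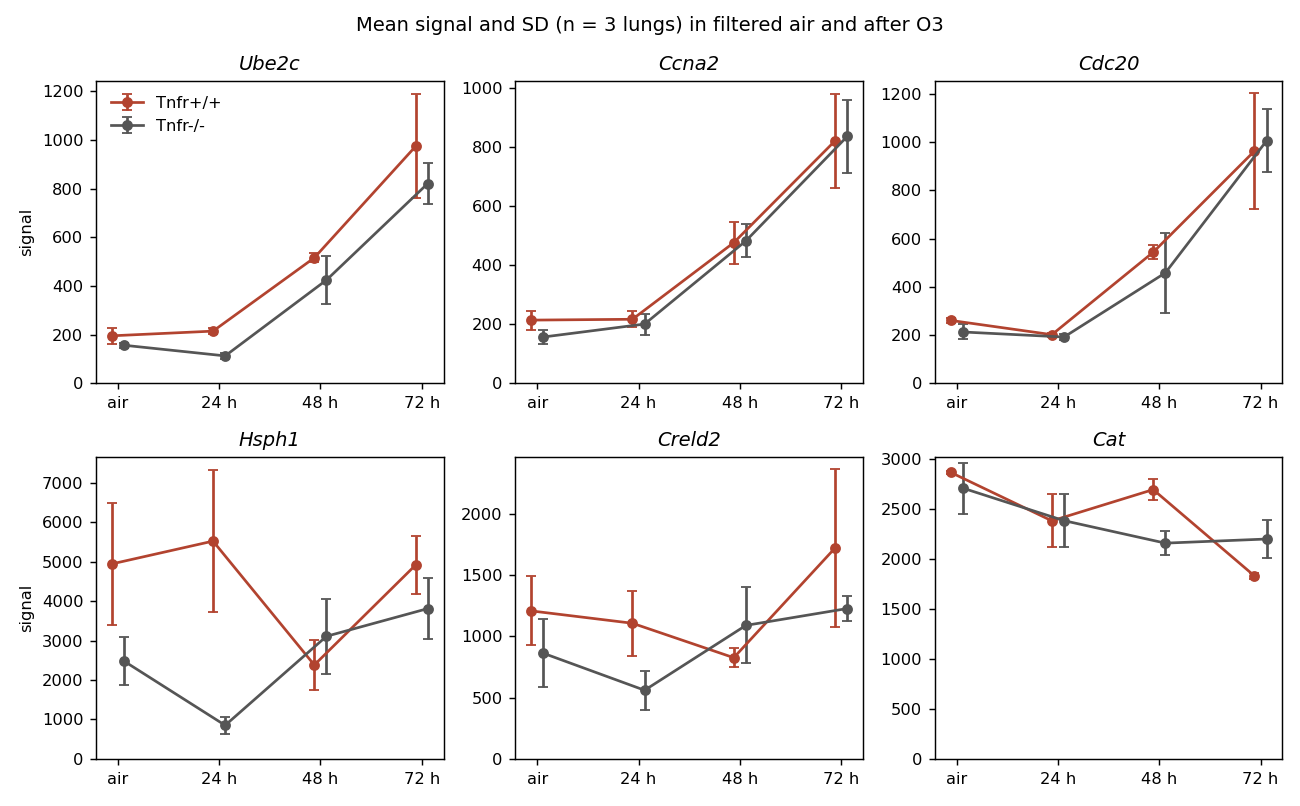
Mean signal with SD (n = 3 lungs) of 3 cell division genes (upper row) and of Hsph1, Creld2 and Cat (lower row) in air and after 24, 48 and 72 h of O3, for Tnfr+/+ and Tnfr-/- lungs. Ube2c, Ccna2 and Cdc20 are higher at 72 h than at 48 h in both genotypes, while mean Cat is 1832 at 72 h and 2697 at 48 h in Tnfr+/+ lungs, and 2202 at 72 h and 2161 at 48 h in Tnfr-/- lungs.

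Genes of late cell division share promoter letters that were looked up here, because these genes were higher together. The CCAAT box (CCAAT) is bound by NF-Y, and the cell cycle genes homology region, CHR (TTTGAA or TTTAAA), is bound by complexes that silence these genes in resting cells and open them before mitosis. Promoters of 300 bases, from 250 before to 50 after the start of transcription, were taken from RefSeq (GRCm38.p6) and searched on both strands. A CCAAT box was in 37.4% and a CHR in 27.6% of 32851 promoters, and both were in 10.7%. Of the 32 measured members, 27 matched a promoter, and 22 of those (81.5%) had a CCAAT box, 21 (77.8%) a CHR and 19 (70.4%) both. Genes with several start sites counted once if any held the motif. The shares over all promoters count each promoter singly, so they are not on the same unit as the shares of the list. The promoters of Cdc20 (chr4:118437294-118437593, minus strand) and Ube2c (chr2:164769679-164769978, plus strand) are shown because both genes are among the 4 members with the lowest p, with CCAAT boxes and CHRs of either strand in capitals.
Cdc20: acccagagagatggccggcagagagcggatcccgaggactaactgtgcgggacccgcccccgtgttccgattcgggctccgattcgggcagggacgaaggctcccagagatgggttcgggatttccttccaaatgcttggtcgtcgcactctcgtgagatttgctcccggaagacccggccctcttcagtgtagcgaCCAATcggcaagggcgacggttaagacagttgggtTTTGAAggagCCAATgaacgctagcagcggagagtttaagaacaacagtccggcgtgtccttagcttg
Ube2c: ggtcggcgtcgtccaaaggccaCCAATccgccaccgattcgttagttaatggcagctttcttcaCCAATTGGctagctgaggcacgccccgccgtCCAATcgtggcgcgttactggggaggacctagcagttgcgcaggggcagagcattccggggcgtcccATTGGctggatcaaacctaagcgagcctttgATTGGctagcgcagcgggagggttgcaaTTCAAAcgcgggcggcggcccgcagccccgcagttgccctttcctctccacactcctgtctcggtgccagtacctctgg
The Cdc20 promoter had 2 CCAAT boxes around 1 CHR, and the Ube2c promoter had 6 CCAAT boxes, 2 of them overlapping, upstream of 1 CHR. A match is a description of the letters and not a bound site.

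DNA replication genes were shifted less. Of 32 measured, 1 passed the 0.01 threshold on the higher side and 0 on the lower (background 0.957% and 1.47%). With no overlap 6 were higher (background 4.37%), and the median log2 difference was 0.25 with all arrays and 0.33 without replicate 1. The counts turned on single lungs. Without replicate 1, 3 passed on the higher side and 0 on the lower (background 0.785% and 1.6%). With no overlap 14 were then higher and 1 lower (background 10.1% and 12.1%). Leaving out 48 h replicate 2 instead, 3 passed on the higher side and 0 on the lower (background 95 and 156 of 11597 genes). With all arrays the member past the threshold was Rrm2, a subunit of ribonucleotide reductase, with signals of 826, 756 and 879 in the 72 h lungs, against 616, 619 and 399 in the 48 h lungs. Without replicate 1 Rrm2 did not pass (limma, unadjusted p = 0.0158). Its further probe sets had log2 differences of 0.63 and 0.24 with all arrays (limma, unadjusted p = 0.123 and 0.572). Prim1, the DNA primase, gave 393, 593 and 480.2 in the 72 h lungs, against 304, 421 and 360.5 in the 48 h lungs, with overlap. Pcna, the sliding clamp of DNA polymerase, gave 2436, 3239 and 4043 in the 72 h lungs, against 3419, 3409 and 2994 in the 48 h lungs, and its groups overlapped fully. The Tnfr-/- median was -0.01, with 0 of 32 past the threshold in either direction. Dnajc9, a histone chaperone of the J-domain family, was among the 10 named genes that were higher and gave 727, 618 and 648 in the 72 h lungs, against 431, 506 and 365 in the 48 h lungs (log2 difference 0.62 ± 0.14, adjusted p = 0.195).

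Chaperones formed a second group. Of 20 measured heat shock proteins and co-chaperones, 3 passed the 0.01 threshold on the higher side and 0 on the lower (background 0.957% and 1.47%). With no overlap 5 were higher (background 4.37%), and 19 had a log2 difference above 0. The list median was 0.36, and 0.29 without replicate 1. Hsph1, the HSP110 exchange factor for HSP70, gave 5667, 4900.4 and 4188 in the 72 h lungs, against 3010.2, 2417 and 1721 in the 48 h lungs (log2 difference 1.07 ± 0.31, adjusted p = 0.342). Hspd1, the mitochondrial chaperonin HSP60, gave 4624, 5391 and 4953 in the 72 h lungs, against 3877, 3269 and 2811 in the 48 h lungs, and Hsp90aa1, the inducible cytosolic HSP90, gave 9453, 11079.7 and 10651 in the 72 h lungs, against 8165, 7272 and 5319.7 in the 48 h lungs. For all 3 the 48 h lungs lay below the 72 h lungs with no overlap. Without replicate 1, 3 members passed on the higher side and 0 on the lower (background 0.785% and 1.6%). Hspd1 and Hsp90aa1 were among these, but Hsph1 was not (limma, unadjusted p = 0.0149). Without that lung 8 were higher and 2 lower with no overlap (background 10.1% and 12.1%). Without 48 h replicate 2, 3 passed on the higher side and 0 on the lower (background 95 and 156 of 11597 genes). The 3 probe sets of Hsp90aa1 had log2 differences of 0.61, 0.71 and 0.85.

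For these 3 genes the 48 h mean was below the air mean, which was not tested. Hsph1 averaged 4945 in air, 5525 at 24 h, 2383 at 48 h and 4918 at 72 h. Hspd1 averaged 4605 in air, 3319 at 48 h and 4989 at 72 h, and Hsp90aa1 9259 in air, 6919 at 48 h and 10395 at 72 h. The HSP70 genes Hspa1a and Hspa1b rested on 1 lung. Hspa1a gave 3745, 1245 and 1218 in the 72 h lungs, against 1487, 1541 and 1344 in the 48 h lungs, and Hspa1b gave 11300.2, 4879 and 5591 in the 72 h lungs, against 4589, 5027 and 5716 in the 48 h lungs. In both, 72 h replicate 1 was the high value, and without it the log2 differences were -0.24 and 0.04. The small heat shock protein Hspb1 gave 27743, 12127 and 12163 in the 72 h lungs, against 8839.8, 7923 and 12127 in the 48 h lungs, with the same lung highest and the groups overlapping. Its second probe set had a log2 difference of 1.04 with no overlap (limma, unadjusted p = 0.0126), and of 0.55 without replicate 1.

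In the unfolded protein response of the endoplasmic reticulum, 3 of 25 genes passed the 0.01 threshold on the higher side and 0 on the lower (background 0.957% and 1.47%). With no overlap 7 were higher (background 4.37%), and the list median was 0.18. Pdia3, a disulfide isomerase that helps glycoproteins fold, gave 8165, 5544 and 5642 in the 72 h lungs, against 4669, 4277 and 3556 in the 48 h lungs (log2 difference 0.62 ± 0.17, adjusted p = 0.288). Creld2, a secreted stress protein, gave 2458, 1454 and 1250.2 in the 72 h lungs, against 782, 782 and 914 in the 48 h lungs, and Sdf2l1, a cofactor of the chaperone BiP, gave 1893, 740.3 and 744 in the 72 h lungs, against 569, 531 and 544 in the 48 h lungs. Replicate 1 was the highest of the 72 h lungs in all 3, and without it their log2 differences were 0.43, 0.71 and 0.44. None of these 3 passed the 0.01 threshold without that lung (limma, unadjusted p = 0.0156, 0.0326 and 0.0671). Hspa5, which encodes BiP, gave 15685, 11907 and 13304 in the 72 h lungs, against 12073, 10627 and 8886 in the 48 h lungs, with overlap. Other members stood the other way on that lung. Pdia6 gave 1880.3, 3637 and 3409 in the 72 h lungs, against 2577, 2206 and 2394 in the 48 h lungs and Hyou1 1089, 1624 and 1692 in the 72 h lungs, against 1161, 1082 and 804 in the 48 h lungs, so that with all arrays both overlapped and without replicate 1 both lay above the 48 h lungs (unadjusted p = 0.00746 and 0.00872). Without replicate 1, 12 were higher and 2 lower with no overlap (background 10.1% and 12.1%), and the median was 0.26. Of the 25, 2 then passed on the higher side, Pdia6 and Hyou1, and 1 on the lower (background 0.785% and 1.6%). The lower one was Atf4, the transcription factor of amino acid and ER stress, with 3469, 2501 and 2112 in the 72 h lungs, against 3096, 2931 and 4263 in the 48 h lungs. Without 48 h replicate 2 and with replicate 1, 1 passed on the higher side (background 95 of 11597 genes).

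The promoters of both chaperone groups were searched and counted in the same way, with motifs chosen after the values were seen. The ER stress response element, ERSE (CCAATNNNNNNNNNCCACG, which contains a CCAAT box), is bound by ATF6 with NF-Y, and the heat shock element, HSE (GAA and TTC in turn, 3 such units with NN between each, starting with either), by HSF1. An ERSE was in 0.119% of the 32851 promoters and in 7 of the 23 matched unfolded protein response genes (30.4%), namely Calr, Canx, Creld2, Dnajc3, Hsp90b1, Hspa5 and Pdia6. An HSE was in 0.603% of all promoters and in 4 of 17 matched heat shock genes (23.5%), namely Chordc1, Hspd1, Hspe1 and Hsph1. Of these 11 genes, Creld2, Hspd1 and Hsph1 were past an unadjusted p of 0.01 with all arrays. Creld2 and Hsph1 were not past it without 72 h replicate 1. The promoters of Creld2 (chr15:88819396-88819695, plus strand) and Hsph1 (chr5:149636287-149636586, minus strand, 1 of 2 start sites) are shown because each holds the motif of its group, with the ERSE and the HSE in capitals.
Creld2: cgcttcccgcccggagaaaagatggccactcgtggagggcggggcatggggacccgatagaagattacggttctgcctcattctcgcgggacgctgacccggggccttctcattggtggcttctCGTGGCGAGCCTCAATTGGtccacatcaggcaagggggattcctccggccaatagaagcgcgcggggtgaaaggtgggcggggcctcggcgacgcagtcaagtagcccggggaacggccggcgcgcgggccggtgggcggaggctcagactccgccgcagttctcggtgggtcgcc
Hsph1: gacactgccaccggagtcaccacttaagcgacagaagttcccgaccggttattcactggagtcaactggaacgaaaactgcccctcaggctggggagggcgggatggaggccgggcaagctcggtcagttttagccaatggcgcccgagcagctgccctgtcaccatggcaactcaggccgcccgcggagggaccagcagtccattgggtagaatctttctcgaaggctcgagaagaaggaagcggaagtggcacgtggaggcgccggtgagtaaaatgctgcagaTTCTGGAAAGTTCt
The Creld2 element stood on the opposite strand, and the Hsph1 element lay after the start site.

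The other named genes that were higher belonged to no list. Dipk1b, of a family of protein kinase-like secretory proteins, had the lowest p among them and gave 357, 268 and 305 in the 72 h lungs, against 204, 193 and 182 in the 48 h lungs. The 48 h lungs were close together below all 72 h lungs (log2 difference 0.68 ± 0.13, adjusted p = 0.0871; without replicate 1 0.57). Arhgef10l gave 323, 299 and 308 in the 72 h lungs, against 150.3, 153 and 235 in the 48 h lungs. Tceal9, on the X chromosome, gave 5591, 5948 and 6253 in the 72 h lungs, against 4734, 4241 and 3654 in the 48 h lungs, and Tpm4, a tropomyosin of the cytoskeleton, gave 7613, 5996 and 6279.6 in the 72 h lungs, against 4763, 5077 and 5191 in the 48 h lungs. The groups did not overlap in any of the 4, which the choice of the named genes required. In Tnfr-/- lungs Dipk1b had a log2 difference of 0.10 and Arhgef10l of -0.16, and the difference of the step between genotypes had unadjusted p = 0.00402 and 0.00193, with an adjusted p of 0.998 for both.

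**Figure D4:**
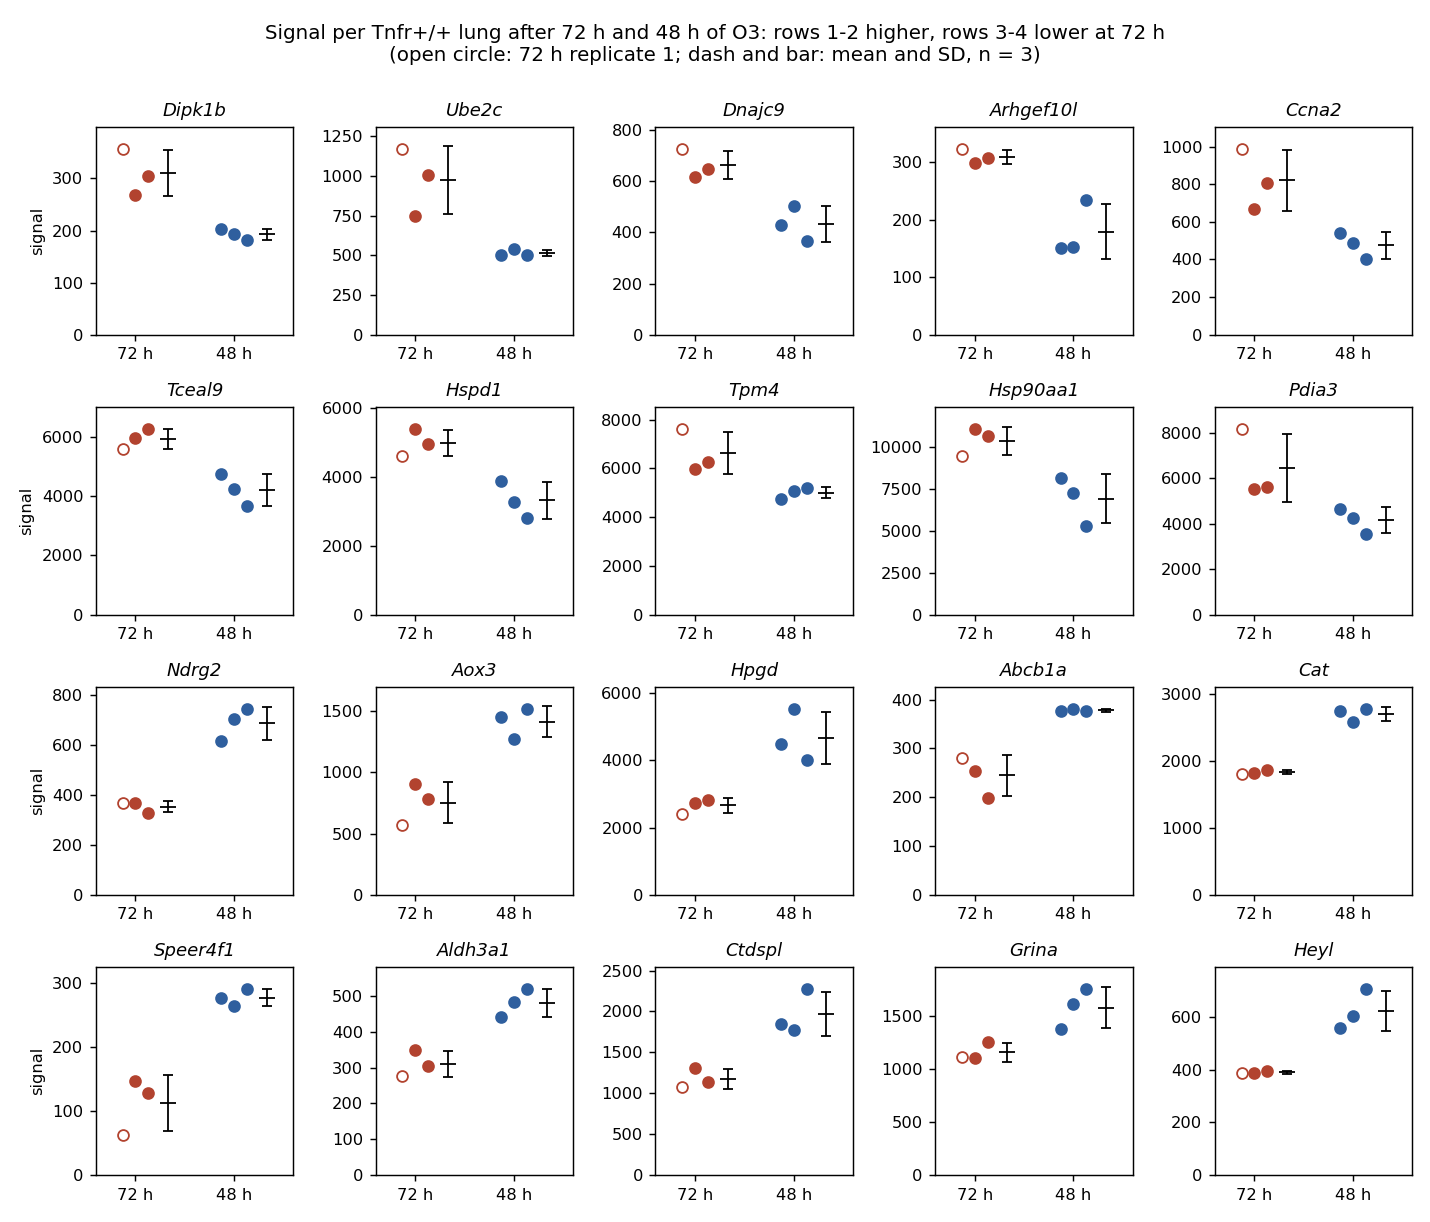
Signal of the 20 named genes in each Tnfr+/+ lung after 72 h (left of each panel) and 48 h (right) of O3; the open circle is 72 h replicate 1, and the dash and bar give the mean and SD (n = 3). The upper 10 are higher and the lower 10 lower at 72 h. The genes were chosen to have no overlap between the groups, so its absence in every panel is fixed by that choice. Cat, for example, lies between 1803 and 1868 at 72 h.

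Among lower genes, Ndrg2 had the lowest p. Ndrg2, a differentiation-linked gene of the N-myc downstream regulated family, gave 368, 367 and 327 in the 72 h lungs, against 616, 705 and 744 in the 48 h lungs. The 72 h lungs, replicate 1 included, were near each other, and all lay below the 48 h lungs (log2 difference -0.96 ± 0.16, adjusted p = 0.0775; without replicate 1 -0.99, adjusted p = 0.0516). In Tnfr-/- lungs its log2 difference was -0.54 (unadjusted p = 0.0026). Hpgd, which inactivates prostaglandin E2, gave 2399.9, 2739.7 and 2833 in the 72 h lungs, against 4479, 5521 and 4019 in the 48 h lungs (log2 difference -0.81 ± 0.15, adjusted p = 0.0871). Its second probe set had a log2 difference of -0.32 with overlap. Abcb1a, described above, had a log2 difference of -0.64 ± 0.12 and an adjusted p of 0.0871, and its second probe set one of -0.94.

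Heyl, a transcriptional repressor downstream of Notch, gave 388, 388 and 397 in the 72 h lungs, against 560.4, 603 and 706 in the 48 h lungs. The 72 h lungs were nearly identical and the 48 h lungs were all above them. Ctdspl, a small phosphatase that keeps RB1 active, gave 1077, 1309 and 1140.3 in the 72 h lungs, against 1848, 1774 and 2271 in the 48 h lungs, and Grina, a membrane protein of the TMBIM family, gave 1111, 1099.8 and 1259 in the 72 h lungs, against 1375, 1613 and 1753 in the 48 h lungs. Grina ran the other way in Tnfr-/- lungs, where it gave 1437, 1371 and 1468 in the 72 h lungs, against 1068, 1243 and 1221 in the 48 h lungs, and its difference of the step between genotypes was -0.72 ± 0.15 (SE; unadjusted p = 1.02e-04, adjusted p = 0.701). Its second probe set had a log2 difference of -0.56 in Tnfr+/+ lungs and 0.04 in Tnfr-/- lungs, so the opposite direction rests on 1 probe set. Speer4f1, a member of a testis gene family with near-identical copies, gave 62.6, 146 and 128 in the 72 h lungs, against 277, 264 and 291 in the 48 h lungs on a probe set that can bind related transcripts, so its identity is uncertain.

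Of the gene lists, detoxifying enzymes had the most members past the 0.01 threshold on the lower side. Of 30 measured genes of xenobiotic metabolism, 0 passed the 0.01 threshold on the higher side and 5 on the lower (background 0.957% and 1.47%), 8 were lower with no overlap (background 4.97%), and the median log2 difference was -0.21. Without replicate 1 it was -0.15, with 3 past the threshold on the lower side (background 1.6%). Without 48 h replicate 2 it was -0.18, with 4 (background 156 of 11597 genes). Aox3, an aldehyde oxidase, gave 573, 902 and 786 in the 72 h lungs, against 1454, 1275 and 1517 in the 48 h lungs (log2 difference -0.93 ± 0.17, adjusted p = 0.0871). Replicate 1 was the lowest lung, and without it the log2 difference was -0.75. Gstt2, a theta class glutathione transferase, gave 109, 149 and 158 in the 72 h lungs, against 394, 257 and 475 in the 48 h lungs.

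Other enzymes were lower by smaller amounts. Cyp4b1, a cytochrome P450 of club cells, gave 7014, 7551 and 7377 in the 72 h lungs, against 10886, 10049 and 9431 in the 48 h lungs (log2 difference -0.47 ± 0.13, adjusted p = 0.323), and Fmo1, a flavin monooxygenase, gave 2125, 2712 and 2111 in the 72 h lungs, against 3539.9, 2982 and 2962 in the 48 h lungs. Ces1d, a carboxylesterase, gave 2854, 4411 and 4013 in the 72 h lungs, against 4769.8, 5137 and 4790.5 in the 48 h lungs. The groups did not overlap in these 3. Cyp2f2, an abundant P450 of mouse club cells, gave 19452, 23499 and 21985 in the 72 h lungs, against 22649, 24859 and 27743 in the 48 h lungs, with overlap. Cyp1a1, an aryl hydrocarbon receptor target, ran the other way with wide spread, 595, 772 and 184 in the 72 h lungs, against 437, 128 and 169 in the 48 h lungs. In Tnfr-/- lungs 0 of the 30 genes passed the threshold and the median was 0.09. The difference of the step between genotypes reached an unadjusted p under 0.01 in 2 of the 30 (background 88 of 11597 genes). These were Ces1d (-0.71 ± 0.19) and Cyp2b10 (-0.73 ± 0.22). None passed after adjustment, and the smallest adjusted p over all 20537 probe sets was 0.315.

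Antioxidant genes under NRF2 stood on both sides of 0. Of 27 measured, 1 passed the 0.01 threshold on the higher side and 3 on the lower (background 0.957% and 1.47%), and the list median was -0.12. Without replicate 1, 0 passed on the higher side and 3 on the lower (background 0.785% and 1.6%). The counts were the same without 48 h replicate 2 (background 95 and 156 of 11597 genes). Cat, the catalase that removes hydrogen peroxide, gave 1803, 1826 and 1868 in the 72 h lungs, against 2745, 2575 and 2772 in the 48 h lungs, with narrow spread at both times (log2 difference -0.56 ± 0.11, adjusted p = 0.109; without replicate 1 -0.55). Its second probe set had a log2 difference of -0.56 with overlapping groups, and of -0.22 without replicate 1. Aldh3a1, an aldehyde dehydrogenase of epithelium, gave 276, 348 and 304 in the 72 h lungs, against 441, 482 and 519 in the 48 h lungs, and Taldo1, of the pentose phosphate pathway, gave 1279.8, 1142 and 1165 in the 72 h lungs, against 1353, 1563 and 2101 in the 48 h lungs. Gclc, the catalytic subunit of glutathione synthesis, stood the other way, 3846, 4304 and 4058 in the 72 h lungs, against 3345, 2719 and 2782 in the 48 h lungs, and was higher in Tnfr-/- lungs as well (log2 difference 0.50). The second Gclc probe set had log2 differences of 0.25 in Tnfr+/+ lungs, with overlap (limma, unadjusted p = 0.148), and 0.19 in Tnfr-/- lungs. Nqo1 and Hmox1, 2 of the best known NRF2 targets, had log2 differences of -0.19 and 0.13, with overlapping groups. In Tnfr-/- lungs Cat gave 2422, 2135 and 2051 in the 72 h lungs, against 2200.1, 2254 and 2029 in the 48 h lungs, and its difference of the step was -0.58 ± 0.16 (SE; unadjusted p = 0.0018, adjusted p = 0.998).

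**Figure D5:**
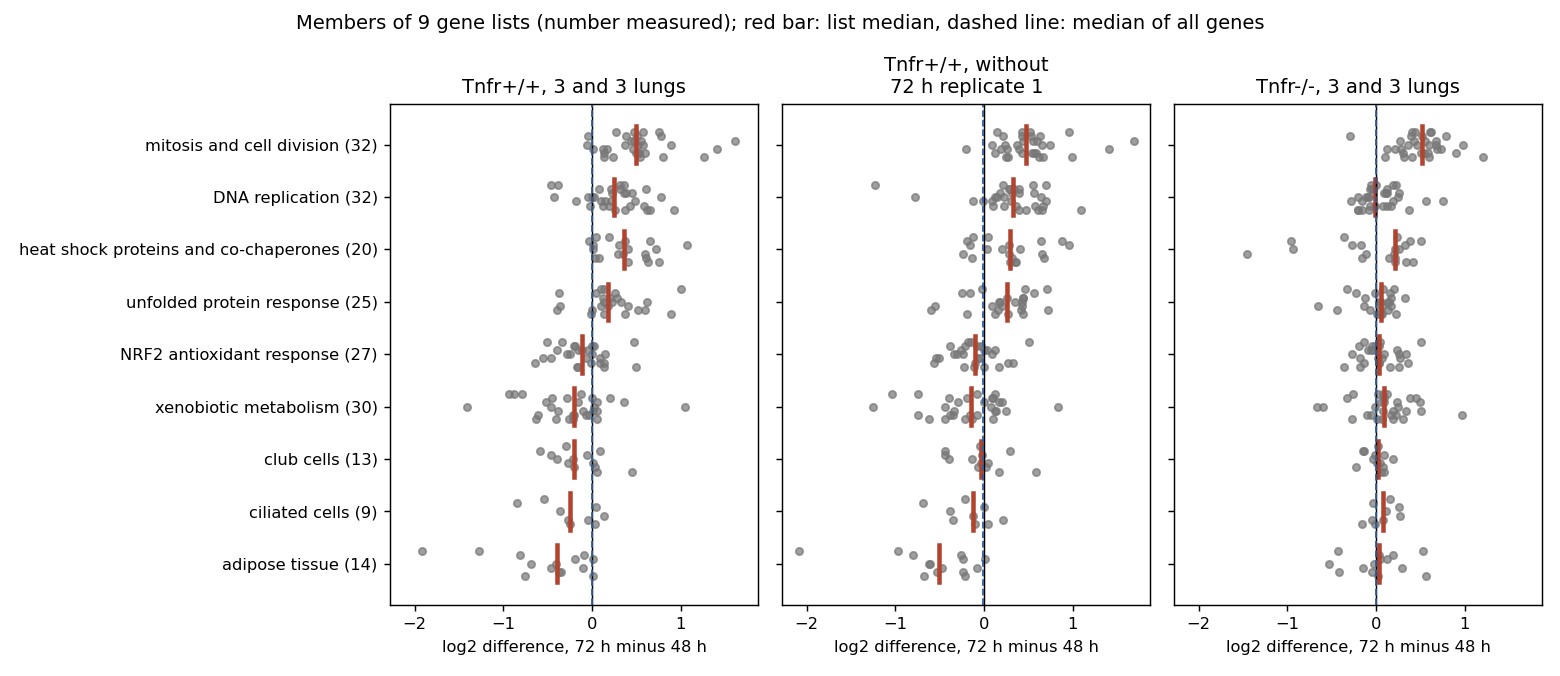
Log2 difference (72 h minus 48 h) of each measured member of 9 gene lists in Tnfr+/+ lungs (left), in Tnfr+/+ lungs without 72 h replicate 1 (middle) and in Tnfr-/- lungs (right); red bars are list medians and the dashed line is the median of all genes. The cell division list has its median above 0 in all 3 panels, at 0.50, 0.48 and 0.51, and the xenobiotic list has its median at -0.21, -0.15 and 0.09.

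Markers of airway and other cells were read as lists, and in whole lung fewer cells of a type and less RNA per cell cannot be told apart. Of 13 club cell markers 2 passed the 0.01 threshold on the lower side (background 1.47% of all genes), Cyp4b1 and Selenbp1, and 1 without replicate 1 (background 1.6%). Selenbp1, a selenium-binding protein, gave 6576, 9565 and 8506 in the 72 h lungs, against 10707, 12648 and 13433 in the 48 h lungs. Its second probe set had a log2 difference of -0.85 with no overlap (limma, adjusted p = 0.0799). Without replicate 1 that probe set was at -0.72 (limma, unadjusted p = 2.33e-04), while the first had an unadjusted p of 0.0129. The secretoglobin Scgb1a1, the defining club cell marker, had a log2 difference of 0.01. The club cell median was -0.20 with all arrays and -0.04 without replicate 1, and it lay above 0 with the values as deposited (0.07) and with cyclic loess (0.01). Of 24 listed ciliated cell markers only 9 were measured, with a median of -0.24. At the same threshold 1 was lower (background 1.47%), Tekt2, a tektin of the axoneme, at 64.3, 105 and 75.4 in the 72 h lungs, against 141, 113 and 184 in the 48 h lungs. Foxj1, the master regulator of motile cilia, gave 835, 684 and 747 in the 72 h lungs, against 948, 736 and 1073 in the 48 h lungs, with overlap.

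For the counts of lower markers that follow, the background was 1.47% of all genes. Of 23 endothelial markers 1 was lower at the same threshold, Vwf, the clotting factor stored in endothelium, at 2088, 2503 and 2269.7 in the 72 h lungs, against 2952, 2997 and 4900.4 in the 48 h lungs. Its 48 h replicate 3 was the highest. Of 19 fibroblast markers 2 were lower, Gpx3, a secreted glutathione peroxidase, at 8979.9, 11642 and 8869 in the 72 h lungs, against 11907, 11300.2 and 18515 in the 48 h lungs, and Inmt, a methyltransferase, at 8407, 12511 and 11216 in the 72 h lungs, against 15472, 11357 and 17262 in the 48 h lungs, both with overlap. Without replicate 1, 0 of the 19 passed (unadjusted p = 0.0254 for Gpx3 and 0.0762 for Inmt). Col1a1, a chain of type I collagen, gave 5600.1, 3255 and 3223 in the 72 h lungs, against 2137, 2067 and 3469 in the 48 h lungs, with replicate 1 highest. Of 18 smooth muscle markers 1 was lower, the smooth muscle myosin Myh11, at 217, 149 and 199 in the 72 h lungs, against 466, 261 and 356 in the 48 h lungs, and without replicate 1 its unadjusted p was 0.0106. Of 12 neutrophil markers 0 passed in either direction (median 0.29), and of 12 goblet cell markers 0 (median 0.42), where the mucin Muc5b gave 1320.5, 1591 and 2012 in the 72 h lungs, against 1186, 1395 and 1010.4 in the 48 h lungs. The alveolar type 2 list had a median of -0.06 (0.12 with the values as deposited and 0.01 with cyclic loess) and the alveolar macrophage list one of -0.10, with 0 members past the threshold in each. The sums over the cardiac muscle list were 20622, 11240.2 and 12098 in the 72 h lungs and 15465, 13142 and 10767 in the 48 h lungs, with 72 h replicate 1 highest, and 0 of its 30 genes passed.

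Mediators of inflammation stood out little in this step. Of 28 acute phase and inflammatory genes 0 passed an unadjusted p of 0.01, with a median of -0.10 (0.10 without replicate 1). Of 24 chemokines 1 passed, on the higher side (background 0.957% of all genes), Cxcl16, a ligand of CXCR6, at 2155, 1204 and 1447 in the 72 h lungs, against 1132, 1065 and 1035 in the 48 h lungs, with an unadjusted p of 0.0672 without replicate 1. Ccl20, which draws CCR6-bearing lymphocytes, was lower with no overlap, at 62.3, 35.9 and 69.3 in the 72 h lungs, against 172, 151 and 145 in the 48 h lungs (unadjusted p = 0.0126). Cd86, a costimulatory ligand on antigen-presenting cells, was higher at 220.2, 174 and 163 in the 72 h lungs, against 131, 77.6 and 113 in the 48 h lungs (log2 difference 0.81 ± 0.20, adjusted p = 0.244; Tnfr-/- -0.09). Ifit1, an interferon-induced antiviral protein, was higher at 915, 624 and 591 in the 72 h lungs, against 471, 441 and 338 in the 48 h lungs, with an unadjusted p of 0.0226 without replicate 1, while the interferon list of 27 had a median of 0.03. Ccl17, a ligand of CCR4, Timp1, an inhibitor of metalloproteinases, and Retnla had log2 differences of 0.12, -0.17 and 0.03, with overlap in each. Retnla, which alternatively activated macrophages secrete, gave 20712, 18899.5 and 21771 in the 72 h lungs, against 19893, 22649 and 17642 in the 48 h lungs.

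Among growth and matrix genes, the groups did not overlap in Hbegf and Itgb6 and overlapped in Sdc2, Thbs1 and Mmp12. Hbegf, an EGF receptor ligand released in epithelial repair, gave 2187, 1771 and 1948 in the 72 h lungs, against 1262, 990.4 and 1717 in the 48 h lungs, with no overlap (log2 difference 0.60 ± 0.19, adjusted p = 0.352). Itgb6, the epithelial integrin chain that activates TGF-beta, gave 246, 292 and 323 in the 72 h lungs, against 225, 163 and 137 in the 48 h lungs, also with no overlap. Its second probe set had a log2 difference of 0.45 with overlap (limma, unadjusted p = 0.196). Sdc2, a heparan sulfate proteoglycan, gave 463, 487 and 682 in the 72 h lungs, against 959.9, 616 and 840.00 in the 48 h lungs, and Thbs1, a matrix protein that binds TGF-beta, gave 836, 2581 and 2051 in the 72 h lungs, against 3219, 2479.5 and 2160.5 in the 48 h lungs, where 72 h replicate 1 was far below the rest and the log2 difference without it was -0.17. Mmp12, the macrophage elastase, gave 87.5, 163 and 189.5 in the 72 h lungs, against 169.9, 132 and 69.7 in the 48 h lungs, with overlap. Of 20 measured genes of cholesterol synthesis 1 was lower past the 0.01 threshold (background 1.47% of all genes), Hmgcs1, which makes HMG-CoA, at 2646, 3143 and 3215 in the 72 h lungs, against 3478, 3640.5 and 5544 in the 48 h lungs. Without replicate 1 its unadjusted p was 0.0427. The further Hmgcs1 probe sets had log2 differences of -0.36, -0.60 and -0.58 with all arrays. Their unadjusted p without replicate 1 was 0.248, 0.00896 and 0.531 (limma). Without that lung 1 gene of the list passed on the higher side and 0 on the lower (background 0.785% and 1.6%). The list median was then 0.05, against -0.11 with all arrays. The log2 difference of Hmgcs1 in Tnfr-/- lungs was -0.60.

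Tnfr+/+ and Tnfr-/- steps share no array. In the Tnfr-/- step 120 probe sets (0.584%) passed the 0.01 threshold on the higher side and 119 (0.579%) on the lower. The difference of the step between the genotypes was past an adjusted p of 0.05 for 0 probe sets in either direction (445 and 523 at an unadjusted p under 0.05), while 71 (0.346%) passed the 0.01 threshold with a higher step in Tnfr+/+ and 97 (0.472%) with a lower one. Heat shock and unfolded protein response genes had medians of 0.21 and 0.06 in Tnfr-/- lungs. Of these, 0 of the 20 and 0 of the 25 differed between genotypes at an unadjusted p under 0.01 (background 88 of 11597 genes). Without 72 h replicate 1 the difference was called for 1 probe set (0.00487%), the unnamed one described above, at an adjusted p of 0.0376, and the 0.01 threshold was passed by 83 (0.404%) with a higher step in Tnfr+/+ and 130 (0.633%) with a lower one.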

How the data were processed

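Left lung RNA of 24 mice, 8 groups of 3, was hybridised to MOE430A arrays, 1 mouse per array. The authors made the deposited signal intensities with MAS5 in Affymetrix Expression Console, per the labels; 22644 probe sets are listed, and the values are linear. Here they were quantile normalized, values under 1 set to 1, and log2 taken. A probe set was kept if at least 1 array reached its 20th percentile there (20537). limma 3.58.1 in R 4.3.3 fitted 8 group means (16 residual and 2.38 prior degrees of freedom); p-values are two-sided, adjusted by Benjamini-Hochberg over all probe sets kept. Air arrays enter the normalization, the filter and the shared spread, but not the contrast. Platform annotation gave 20338 probe sets 1 gene, 691 several and 1551 none; 20309 were matched to RefSeq. A gene is its probe set with the highest mean. The 10 named genes per direction had the lowest unadjusted p among genes without overlap, with the higher group mean at or above the median signal and p under 0.05 also without 72 h replicate 1; genes of the study's text and up to 4 per list were added, and others, such as those used as markers or named beside a list, were chosen after their values were seen. Members and lists were chosen with earlier results of these data known. Alternatives included other scalings, filters, spread estimates, lungs left out and the replicate block. The fit was tested on simulated data.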

Additional observations from a re-analysis of the deposited data

Results flagged for a closer look

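The Gapdh 3′/5′ control ratio of 72 h replicate 1 was 4.45 in Tnfr+/+ lungs, above the range of 1.28 to 1.56 over the 6 air arrays and of 1.30 to 1.33 over the 3 Tnfr+/+ 48 h arrays. The control probe sets are outside the comparisons, and this value was picked out because it lies above the air arrays. Its part in the results was not tested.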

How the results depend on the processing

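Of 215 named genes, 3823 alternative values were computed over up to 18 alternatives each, and 31 had another sign, none of them among the 20 ranked genes, whose selection favours that. Of those 20, Ndrg2 passed an adjusted p of 0.05 with a filter at the median (0.0484) and with trend and robust (0.0351), and Abcb1a without 72 h replicate 1 (0.0394). Probe sets called at an adjusted p under 0.05 in the Tnfr+/+ step were 1 higher with the 18 O3 arrays and with array quality weights, and 1 lower with the median filter, with the 18 O3 arrays and with the replicate block and 2 lower with trend and robust. Leaving out 1 lung gave 0 to 2 higher and 0 to 9 lower; the extremes were 2 higher without 48 h replicate 1 and 9 lower without 72 h replicate 1. At an unadjusted p under 0.01, the 6 arrays alone gave 87 higher and 82 lower, the 12 Tnfr+/+ arrays 131 and 145, the methods' t-test 87 and 95, and the 5 arrays without 72 h replicate 1, chosen after seeing the data, 87 and 152; leaving out 1 lung gave 195 to 300 higher and 244 to 395 lower. After Benjamini-Hochberg the methods' t-test called 0. Tnfr-/- calls were 2 with cyclic loess, 0 with the median filter, 3 with log2(value + 16), 0 with the 18 O3 arrays, 6 with quality weights (472 at an unadjusted p under 0.01), 0 with trend and robust, and 2 with the block. For the difference of the step, calls were 1 with the block and 0 to 1 when 1 lung was left out; at an unadjusted p under 0.01 they were 111 with the median filter and 178 to 270 when 1 lung was left out (270 without 72 h replicate 3, 253 without 72 h replicate 2). Replicate numbers did not pair the samples: the deviations of same-numbered lungs correlated at -0.13, 0.03 and -0.18.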

Other observations

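Clock genes were compared as a further list. Of 18 measured in Tnfr+/+ lungs, 0 passed an unadjusted p of 0.01 on either side (limma; background 0.957% and 1.47% of genes), with a median log2 difference of -0.12. In Tnfr-/- lungs 4 passed on the higher side and 1 on the lower (background 0.629% and 0.526%), with a median of 0.27. Dbp, an output gene of the clock, gave 334, 266 and 316 in the 72 h lungs, against 169, 261 and 283 in the 48 h lungs in Tnfr+/+ mice and 812, 927 and 1082 in the 72 h lungs, against 296, 518 and 370.5 in the 48 h lungs in Tnfr-/- mice. Per2, a core repressor, gave 296, 270.5 and 236 in the 72 h lungs, against 338, 373 and 376 in the 48 h lungs in Tnfr+/+ mice, and its step differed between genotypes by -1.26 ± 0.38 (SE; unadjusted p = 0.0036, adjusted p = 0.998).

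Glucocorticoid-induced genes had a median log2 difference of -0.13 in Tnfr+/+ lungs, with 0 of 22 past an unadjusted p of 0.01. Tsc22d3, which encodes the glucocorticoid-induced leucine zipper, gave 1221, 1468 and 1458 in the 72 h lungs, against 2374, 2014 and 2399.9 in the 48 h lungs, with no overlap (unadjusted p = 0.0245). Cd37, a tetraspanin of B cells, gave 88.8, 64.5 and 222 in the 72 h lungs, against 200.3, 301 and 322 in the 48 h lungs, with overlap (unadjusted p = 0.00156). Its second probe set stood the other way, with a log2 difference of 0.18 (limma, unadjusted p = 0.398). The B cell list as a whole had a median of 0.14.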
